A study of Mus musculus with 22 samples.

Results

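A set of 10 genes of colonic goblet cells other than the mucins were followed across colitis in mice: the secreted products Tff3, Fcgbp, Zg16 and Spink4, the cytoplasmic goblet markers Bcas1 and Sytl2, and the transcription factors Atoh1, Gfi1, Spdef and Creb3l1. They were found by exact gene symbol among the 46078 genes of the deposited count table, and all 10 were present and passed the filter on low counts in each comparison. RNA had been taken from the distal colon of 22 mice and sequenced after poly(A) selection. The 8 C57BL/6 mice, 14 weeks old, were 4 males and 4 females. The 7 Winnie mice, also 14 weeks old, carried a mutation in Muc2 and had spontaneous colitis, and comprised 3 males and 4 females. The 7 Winnie-Prolapse mice carried the same mutation, had gone on to prolapse, and were 18 weeks old, with 4 males and 3 females. Prolapse and age therefore cannot be told apart. The labels gave no other genotype, treatment or batch for these mice, and each library came from a separate animal.

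Goblet cells make and release the mucus that lies over the colonic epithelium. Their lineage depends on Atoh1, the basic helix-loop-helix factor that directs epithelial progenitors to the secretory fate, followed by Gfi1, a zinc finger repressor that separates goblet cells from enteroendocrine cells, and Spdef, an Ets factor of goblet cell maturation. Mature cells pack the gel-forming mucin Muc2 into granules together with smaller products such as the trefoil peptide Tff3. In bulk tissue, fewer goblet cells and less RNA per goblet cell cannot be told apart.

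Promoter sequence was matched in RefSeq (GRCm38.p6) for 4 of the 10 genes, Atoh1, Gfi1, Spdef and Fcgbp. The 250 bases before the start are shown for Atoh1 and Spdef, fate factors of which the first fell in Winnie-Prolapse and the second passed no comparison, and for Fcgbp, a product that varied closely with Atoh1. Capitals mark CAGCTG, an E-box of the kind basic helix-loop-helix factors bind, and GGAT or its reverse complement ATCC, the core preferred by Spdef. The window of Atoh1 lies at chr6:64728875-64729124 (plus strand), that of Spdef at chr17:27728952-27729201 (minus strand) and that of Fcgbp at chr7:28070986-28071235 (plus strand).
Atoh1: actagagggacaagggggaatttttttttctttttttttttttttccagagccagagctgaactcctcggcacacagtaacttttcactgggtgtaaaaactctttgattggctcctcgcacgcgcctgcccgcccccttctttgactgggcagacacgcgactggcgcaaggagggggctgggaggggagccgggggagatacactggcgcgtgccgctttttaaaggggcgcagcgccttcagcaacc
Spdef: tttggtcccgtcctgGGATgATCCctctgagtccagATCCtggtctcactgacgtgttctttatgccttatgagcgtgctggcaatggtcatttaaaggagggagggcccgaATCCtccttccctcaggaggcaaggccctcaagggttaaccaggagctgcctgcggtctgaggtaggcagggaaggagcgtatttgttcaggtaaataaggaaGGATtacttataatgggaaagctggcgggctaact
Fcgbp: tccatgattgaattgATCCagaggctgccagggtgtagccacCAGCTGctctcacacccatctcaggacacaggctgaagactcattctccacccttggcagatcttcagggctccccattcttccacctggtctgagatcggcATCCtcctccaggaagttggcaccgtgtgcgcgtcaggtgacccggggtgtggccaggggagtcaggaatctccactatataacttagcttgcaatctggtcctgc
CAGCTG, which reads the same on both strands, occurred once in the Fcgbp window and in neither of the other windows shown, nor in the 2 windows of Gfi1, which also held no GGAT. Among 32851 mouse promoter windows of this length, 13.0% held it. GGAT on either strand occurred 5 times before Spdef, 2 times before Fcgbp and 0 times before Atoh1, against 74.1% of all windows with at least 1 match, 42.2% with 2 or more and 2.53% with 5 or more. No base was shared by 2 matches in these windows, and a match of letters is a description of the sequence only.

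In the GENCODE annotation of GRCm38, Tff3 lies at chr17:31125306-31129646, Fcgbp at chr7:28071236-28120862, Zg16 at chr7:127050156-127087328 and Spink4 at chr4:40920052-40931395. Bcas1 lies at chr2:170346991-170427845 and Sytl2 at chr7:90302252-90410719. Atoh1 lies at chr6:64729125-64731245, Gfi1 at chr5:107716657-107726036, Spdef at chr17:27714352-27728955 and Creb3l1 at chr2:91982328-92024502. All 10 are protein-coding in that annotation, where the deposited count table labels Bcas1 a processed transcript. Zg16, Bcas1 and Gfi1 overlap noncoding genes on the opposite strand. Those of Bcas1 never reached more than 0.101% of its counts and that of Gfi1 never more than 4.23%, and how reads shared between genes were assigned was not given in the sources used here.

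The libraries held between 24.8 M and 36.3 M gene counts. C57BL/6 replicate 7 stood apart from the other 7 control mice: it had the lowest level of 7 of the 10 genes and the highest of Spdef and Muc2. Winnie-Prolapse replicate 6 carried milk protein transcripts at 18.0% of its counts, where no other library exceeded 0.00542%. The summed share of counts taken by the 10 genes was 0.712% ± 0.197 (SD, n = 8) for the C57BL/6 mice. For Winnie it was 0.794% ± 0.459 (SD, n = 7), and for Winnie-Prolapse 0.394% ± 0.272 (SD, n = 7). The medians were 0.737%, 0.596% and 0.2205%, so that Winnie lay above C57BL/6 by its mean and below it by its median, and Winnie replicates 4 and 6 had the highest shares, 1.459% and 1.455%. Levels below are counts scaled to the library's total gene count (CPM), and fold changes come from edgeR quasi-likelihood fits over all genes, with p-values adjusted by Benjamini-Hochberg over all of them. A gene is said to have risen or fallen where the adjusted p was under 0.05 and the change at least 1.5-fold.

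**Figure D1:**
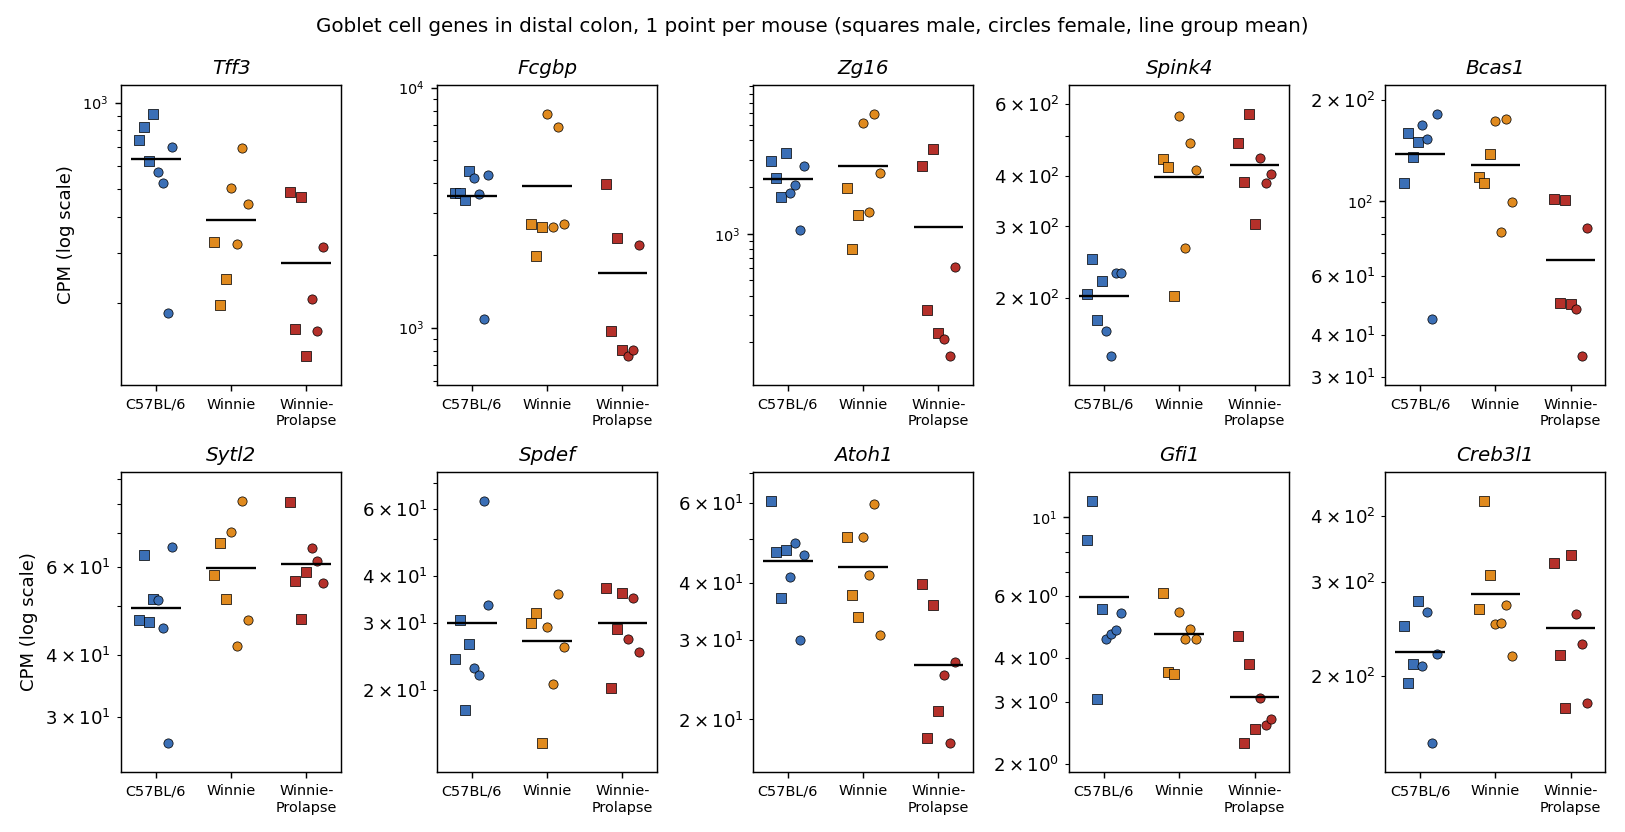
CPM (log axis) of the 10 genes in 22 mice, 1 point per mouse, squares for males and circles for females, with a line at the group mean. Spink4 was higher in all 7 Winnie-Prolapse mice than in any C57BL/6 mouse, while Zg16 in Winnie-Prolapse ran from 163 to 3506 CPM.

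Spink4 was the member that rose in both colitic groups. Spink4 encodes a Kazal-type protease inhibitor that goblet cells secrete. It ranged from 144 to 250 CPM in C57BL/6 (median 212), from 202 to 561 CPM in Winnie (median 420) and from 304 to 567 CPM in Winnie-Prolapse (median 403). The 7 Winnie-Prolapse values all lay above the highest C57BL/6 value, and 6 of the 7 Winnie values did so. The log2 fold change was 1.07 ± 0.20 (SE) in Winnie against C57BL/6 (edgeR quasi-likelihood test, adjusted p = 0.00361). For Winnie-Prolapse against C57BL/6 it was 1.17 ± 0.16 (adjusted p = 2.4e-05). Between Winnie-Prolapse and Winnie the difference was 0.09 ± 0.23 (adjusted p = 0.830), and the 2 groups overlapped over most of their range. Within males alone the Winnie difference from C57BL/6 was 0.77 ± 0.26 (edgeR, adjusted p = 0.0491), and within females it was larger, 1.29 ± 0.26, but did not pass (adjusted p = 0.171). For Winnie-Prolapse it was 1.09 in males (adjusted p = 0.0122) and 1.25 in females (adjusted p = 0.00335).

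Tff3, Fcgbp and Zg16 had their lowest levels in a subset of the Winnie-Prolapse mice. Tff3, the trefoil peptide of mucosal repair, ranged from 185 to 913 CPM in C57BL/6 (median 661), from 198 to 694 CPM in Winnie (median 328) and from 131 to 490 CPM in Winnie-Prolapse (median 206). It fell by 1.09 ± 0.35 (SE, log2) in Winnie-Prolapse against C57BL/6 (edgeR, adjusted p = 0.0160). Males alone gave -1.21 (edgeR, adjusted p = 0.0789) and females -0.98 (adjusted p = 0.117), and neither passed. In Winnie against C57BL/6 the log2 fold change was -0.59 ± 0.31 (adjusted p = 0.172). The lowest control value was that of C57BL/6 replicate 7, and without that library the Winnie difference became -0.73 ± 0.25 (adjusted p = 0.0452).

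Fcgbp encodes a large mucus protein that binds the Muc2 network. It ranged from 1082 to 4475 CPM in C57BL/6 (median 3627), from 1978 to 7768 CPM in Winnie (median 2691) and from 761 to 3958 CPM in Winnie-Prolapse (median 969). Winnie replicates 4 and 6, both female, stood above every other library, and 4 of the 7 Winnie-Prolapse mice lay below every C57BL/6 mouse. Against C57BL/6 the log2 fold change was 0.25 ± 0.34 in Winnie (edgeR, adjusted p = 0.612) and -0.95 ± 0.39 in Winnie-Prolapse (adjusted p = 0.0506). The latter passed the 0.05 limit without C57BL/6 replicate 7 (-1.08, adjusted p = 0.0201) and in the fits without Winnie-Prolapse replicate 1, 3 or 7. The fit without both C57BL/6 replicate 7 and Winnie-Prolapse replicate 6 gave -0.97 (adjusted p = 0.0394), and DESeq2 on all libraries gave -0.94 (adjusted p = 0.0297). Winnie-Prolapse against Winnie gave -1.21 ± 0.47 (adjusted p = 0.114), and this difference passed in 1 of the 14 fits that left out a library, without Winnie-Prolapse replicate 1 (adjusted p = 0.0455), and by DESeq2 on all libraries (-1.21, adjusted p = 0.0473).

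Zg16, a lectin-like protein that binds the cell wall of Gram-positive bacteria, had the widest range of the 10 in Winnie-Prolapse. It ranged from 1059 to 3309 CPM in C57BL/6 (median 2178), from 799 to 5906 CPM in Winnie (median 1958) and from 163 to 3506 CPM in Winnie-Prolapse (median 322). Winnie-Prolapse replicates 1 and 3, both male, held 2729 and 3506 CPM, at or above most control mice. Replicate 7 held 607 CPM and the other 4 between 163 and 322 CPM, and all 5 lay below every mouse of the other groups. Winnie replicates 4 and 6 held 5179 and 5906 CPM, the highest of all libraries. The log2 fold change was 0.40 ± 0.40 in Winnie (edgeR, adjusted p = 0.476), and it ran from 0.06 to 0.58 leaving out 1 library and was 0.10 by limma-voom. It was -0.88 ± 0.64 in Winnie-Prolapse against C57BL/6 (adjusted p = 0.256) and -1.29 ± 0.77 against Winnie (adjusted p = 0.292). Without Winnie-Prolapse replicate 3 the difference from C57BL/6 was -1.58 (adjusted p = 0.0336). By limma-voom on all libraries it was -1.89 (adjusted p = 0.0214). In females alone it was -2.42 (edgeR, adjusted p = 0.0132), and -3.53 against Winnie (adjusted p = 0.0153). In males alone the same differences were -0.45 (edgeR, adjusted p = 0.707) and 0.42 (adjusted p = 0.944).

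Bcas1 and Sytl2 differed from each other. Bcas1, a cytoplasmic protein that marks colonic goblet cells, ranged from 44.7 to 182 CPM in C57BL/6 (median 151), from 81.2 to 176 CPM in Winnie (median 118) and from 34.7 to 101 CPM in Winnie-Prolapse (median 49.9). It fell by 0.95 ± 0.29 (SE, log2) in Winnie-Prolapse against C57BL/6 (edgeR, adjusted p = 0.0113) and by 0.94 ± 0.27 against Winnie (adjusted p = 0.0470), and its Winnie value differed from C57BL/6 by -0.01 ± 0.24 (adjusted p = 0.979). Against C57BL/6, Winnie-Prolapse males alone gave -0.81 (edgeR, adjusted p = 0.0814) and females -1.16 (adjusted p = 0.104). The difference between the colitic groups passed in only 3 of the 14 fits that left out 1 library, those without Winnie replicate 2 or Winnie-Prolapse replicate 1 or 3, with a highest adjusted p of 0.0967. With all libraries, this difference did not pass with sex as a covariate or without a filter on low counts. Sytl2, a synaptotagmin-like protein that binds Rab27 on secretory granules, ranged from 26.7 to 65.8 CPM in C57BL/6 (median 49.2), from 41.6 to 81.4 CPM in Winnie (median 57.9) and from 47.2 to 80.8 CPM in Winnie-Prolapse (median 58.6). The 3 groups overlapped, and the log2 fold changes were 0.36 ± 0.18 in Winnie (adjusted p = 0.150) and 0.38 ± 0.15 in Winnie-Prolapse (adjusted p = 0.0468, under the 1.5-fold limit).

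Of the transcription factors, Atoh1 and Gfi1 fell in Winnie-Prolapse against C57BL/6. Neither passed in males alone, where the differences had the same sign as in females. The edgeR interaction of sex and group gave a male minus female difference of 0.02 ± 0.42 (SE, log2) for Atoh1 (unadjusted p = 0.968). For Gfi1 it was -0.39 ± 0.52 (edgeR, unadjusted p = 0.464). Atoh1 ranged from 29.96 to 60.8 CPM in C57BL/6 (median 46.5), from 30.7 to 59.7 CPM in Winnie (median 41.6) and from 17.8 to 39.9 CPM in Winnie-Prolapse (median 25.1). Of the 7 Winnie-Prolapse values, 5 lay below every other mouse, and replicates 1 and 3 were the exceptions. The log2 fold change was 0.05 ± 0.17 in Winnie (edgeR, adjusted p = 0.852), -0.67 ± 0.20 in Winnie-Prolapse against C57BL/6 (adjusted p = 0.00972) and -0.72 ± 0.23 against Winnie (adjusted p = 0.0589). Without C57BL/6 replicate 1 or Winnie-Prolapse replicate 2 the change from C57BL/6 was under 1.5-fold, at -0.56 in the smaller case. In males alone it was -0.68 (edgeR, adjusted p = 0.136) and in females -0.70 (adjusted p = 0.0299). Against Winnie it passed without Winnie replicate 2 or Winnie-Prolapse replicate 1 or 3 (lowest adjusted p 0.0272).

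Gfi1 was the lowest of the 10 genes. It ranged from 3.05 to 11.1 CPM in C57BL/6 (median 5.07), from 3.59 to 6.11 CPM in Winnie (median 4.53) and from 2.30 to 4.62 CPM in Winnie-Prolapse (median 2.69). The difference from C57BL/6 was -0.26 ± 0.24 in Winnie (edgeR, adjusted p = 0.447) and -0.85 ± 0.26 in Winnie-Prolapse (adjusted p = 0.0129), where males alone gave -1.03 (adjusted p = 0.101) and females -0.64 (adjusted p = 0.0318). Against Winnie it was -0.59 ± 0.21 (adjusted p = 0.0836), and it passed without Winnie-Prolapse replicate 1 or 3 (lowest adjusted p 0.0425). Gfi1 is also used by lymphocytes and neutrophil precursors. The summed level of 6 T cell markers was 3.94 to 18.5 CPM in C57BL/6, 12.6 to 35.7 CPM in Winnie and 17.2 to 45.1 CPM in Winnie-Prolapse, the opposite direction to Gfi1, and their part in its level was not tested.

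Spdef and Creb3l1 passed no group comparison by both limits. Spdef ranged from 17.8 to 63.0 CPM in C57BL/6 (median 25.3), from 14.6 to 35.9 CPM in Winnie (median 29.4) and from 20.3 to 37.1 CPM in Winnie-Prolapse (median 29.0). Its differences from C57BL/6 were -0.06 ± 0.25 in Winnie (edgeR, adjusted p = 0.884) and 0.09 ± 0.25 in Winnie-Prolapse (adjusted p = 0.765). The highest value was that of C57BL/6 replicate 7, and without it the differences were 0.19 (adjusted p = 0.478) and 0.36 (adjusted p = 0.0898). Creb3l1, a transcription factor held in the endoplasmic reticulum membrane until proteases release it, ranged from 150 to 277 CPM in C57BL/6 (median 215), from 218 to 427 CPM in Winnie (median 267) and from 175 to 338 CPM in Winnie-Prolapse (median 230). Its log2 fold change in Winnie was 0.44 ± 0.14 (adjusted p = 0.0296), under the 1.5-fold limit, and in Winnie-Prolapse 0.23 ± 0.15 (adjusted p = 0.209).

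The number of members called was set beside the share of all genes called. At an adjusted p under 0.001 and at least 1.5-fold, 0 of 10 were called in Winnie against C57BL/6, beside 0.0925% of 17289 genes tested by edgeR, and DESeq2 called 1, beside 5.84% of 21020 genes. At an unadjusted p under 0.05, 2 of the 10 and 6901 of all genes (39.9%) passed. In Winnie-Prolapse against C57BL/6, 1 of 10 was called (Spink4), beside 18.3% of 17397 genes, with 7 members and 10174 genes (58.5%) at an unadjusted p under 0.05. In Winnie-Prolapse against Winnie, edgeR called 0 of 10 and 0% of 17041 genes, with 4 members and 4743 genes (27.8%) at an unadjusted p under 0.05. At an adjusted p under 0.05 and at least 1.5-fold, Winnie had 1 member higher (background 7.42%) and 0 lower (8.53%). Winnie-Prolapse against C57BL/6 had 1 higher (16.7%) and 4 lower (17.7%), and Winnie-Prolapse against Winnie had 0 higher (4.27%) and 1 lower (2.72%). Groups without overlap occurred for 0 members in Winnie against C57BL/6 (background 1.64%), for Spink4 in Winnie-Prolapse against C57BL/6 (16%) and for 0 members between the colitic groups (0.962%). The median log2 fold change of the 10 was 0.15, -0.76 and -0.55 in these comparisons in turn, where the medians of all genes were -0.01, -0.01 and 0.01. The comparisons share groups, so they are not independent of one another.

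**Figure D2:**
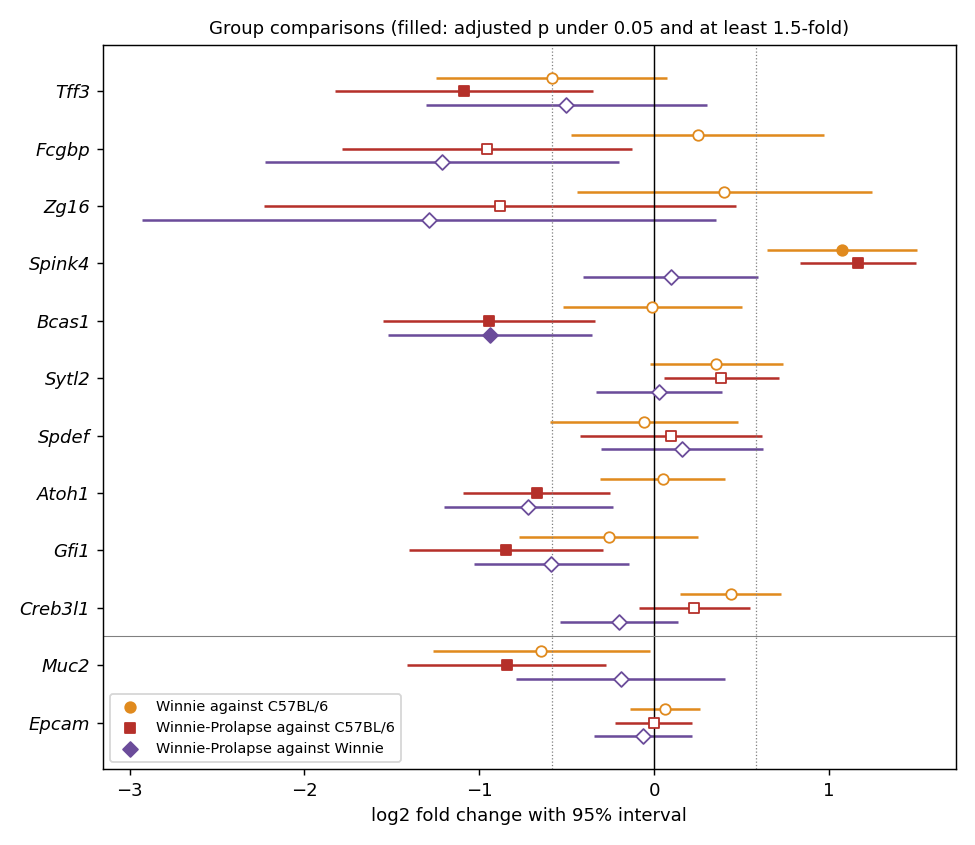
Log2 fold changes with 95% intervals from the edgeR fits for the 10 genes, Muc2 and Epcam in 3 comparisons, with dotted lines at 1.5-fold and filled symbols where the adjusted p was under 0.05 and the change at least 1.5-fold. Spink4 lay right of 0 in both comparisons with C57BL/6, and Tff3, Bcas1, Atoh1 and Gfi1 lay left of 0 in Winnie-Prolapse.

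Each sex was also compared on its own. Tff3 was -1.56 ± 0.21 (SE, log2) in male Winnie against male C57BL/6 (edgeR, adjusted p = 0.00202) and 0.11 ± 0.39 in females (adjusted p = 0.906). Fcgbp was -0.61 ± 0.18 in males (edgeR, adjusted p = 0.0359, also past both limits) and 0.72 ± 0.52 in females (adjusted p = 0.484). Zg16 was -0.87 ± 0.33 in males (adjusted p = 0.0749) and 1.09 ± 0.48 in females (adjusted p = 0.264). The edgeR interaction term gave a male minus female difference of -1.68 ± 0.50 for Tff3 (adjusted p = 0.119) and -1.97 ± 0.66 for Zg16 (adjusted p = 0.152). By that test, 0 of 10 members had a group difference that varied with sex at an adjusted p under 0.05, beside 0.247% of 18233 genes. Tff3, Fcgbp and Zg16 had an unadjusted p under 0.05. DESeq2 called Tff3 (adjusted p = 0.0260) and Zg16 (adjusted p = 0.0405), 2 of 10 members beside 5.06% of 17089 genes. C57BL/6 replicate 7 and Winnie replicates 4 and 6 were all female, and each sex had only 3 or 4 mice a group. The mean log2 CPM of 10 inflammation genes ran from 2.27 to 4.97 in male Winnie mice and from -0.77 to 2.56 in females. Its part in these differences between the sexes was not tested. In the other comparisons edgeR called 0 members and 0% of all genes for the interaction.

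Per kilobase of exon, the order of the levels changed between groups. In C57BL/6 it ran from Zg16 at 1787 CPM per kb through Tff3 at 1289, Spink4 at 425, Fcgbp at 338 and Creb3l1 at 85.1 to Bcas1 at 36.6, Atoh1 at 21.1, Spdef at 13.0, Sytl2 at 3.57 and Gfi1 at 1.87. Only Creb3l1 against Bcas1 and Spdef against Sytl2 did not overlap among neighbours in that order. In Winnie-Prolapse Spink4 stood first at 889 CPM per kb, next to Zg16 at 883, whose range overlapped it, followed by Tff3 at 560 and Fcgbp at 162. Replicates 1 and 3 carried the mean of Zg16, which fell from 1110 to 710 CPM without replicate 3, and Zg16 was below Spink4 in 5 of the 7 mice and above Tff3 in only 2 of 7. Spink4 exceeded Tff3 per kilobase in 1 of 8 C57BL/6, 3 of 7 Winnie and 7 of 7 Winnie-Prolapse mice, a comparison chosen after the values were seen. The length of Sytl2, 13941 bases, joins all its annotated transcripts, which lowers its level per length.

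To set the genes beside the goblet cell's main product and beside the epithelium as a whole, each was divided by Muc2 and by Epcam, an adhesion protein of all colonic epithelial cells, in the same library. Epcam passed in no comparison, with means of 1666 ± 83.9 (SD, n = 8), 1636 ± 136 (n = 7) and 1568 ± 207 (n = 7) CPM in C57BL/6, Winnie and Winnie-Prolapse. Muc2 was 3594 ± 1791, 2135 ± 813 and 1889 ± 589 CPM, and fell by 0.84 (log2) in Winnie-Prolapse against C57BL/6 (edgeR, adjusted p = 0.0155). C57BL/6 replicate 7 held 7901 CPM of Muc2, where the other control mice ran from 2505 to 3893 CPM. The C57BL/6 mean and SD, and the fold changes of Muc2 against C57BL/6, carry that library. Muc2 is also the gene mutated in both colitic groups, so a change in its own transcript cannot be told apart from one in goblet RNA. In Winnie the log2 fold change of Muc2 was -0.65 (adjusted p = 0.113), so a gene with the same level in both groups is higher relative to it. Of 60 ratio comparisons, 25 had an adjusted p under 0.05 in two-sided exact permutation tests adjusted over the 60.

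Relative to Muc2, 5 members were higher in Winnie than in C57BL/6 and 0 lower. By the same exact test at an unadjusted p under 0.05, which also takes 5 and 0 members, 44.8% of 17768 genes were higher relative to Muc2 and 0.242% lower. Spink4 was higher by 1.66 (log2, exact permutation p = 0.000155, the smallest possible with 8 and 7 mice, adjusted p = 0.00233), without overlap. Sytl2 was higher by 1.01 (exact permutation p = 0.000622, adjusted p = 0.00466), also without overlap. No share of all genes without overlap was set beside these ratios or those below. Creb3l1 was higher by 1.10 (exact permutation p = 0.00218, adjusted p = 0.0109), Atoh1 by 0.69 (exact p = 0.0106, adjusted p = 0.0317) and Spdef by 0.64 (exact p = 0.00140, adjusted p = 0.00839). In Winnie-Prolapse against C57BL/6, Spink4, Sytl2, Spdef and Creb3l1 were higher relative to Muc2, by 1.94, 1.19, 0.95 and 1.01 (exact permutation, adjusted p between 0.00233 and 0.00466), 4 members beside 60.2% of genes by the unadjusted rule, with 0 members and 4.63% of genes lower. Without C57BL/6 replicate 7, Tff3, Fcgbp and Bcas1 were lower relative to Muc2 in this comparison, at -0.80, -0.78 and -0.58 in place of -0.39, -0.38 and -0.18 (exact permutation, adjusted p = 0.00807, 0.0321 and 0.0363). Without Winnie-Prolapse replicate 3, Zg16 was at -1.50 in place of -1.09 (exact permutation, adjusted p = 0.0471). Between the colitic groups, Bcas1 relative to Muc2 differed by -0.87 without overlap (exact permutation p = 0.000583, adjusted p = 0.00466). Atoh1 differed by -0.62 (exact p = 0.00175, adjusted p = 0.00954), Fcgbp by -1.16 (exact p = 0.00699, adjusted p = 0.0280) and Zg16 by -1.84 (exact p = 0.0192, adjusted p = 0.0476). By the unadjusted rule 5 members were lower, Gfi1 included, beside 2.75% of genes, and 0 higher beside 5.88%. Several of these ratios in C57BL/6 carry the single low value of replicate 7, whose Muc2 level of 7901 CPM was the highest of all libraries. For Atoh1 that value was -8.04, where the other C57BL/6 mice ran from -6.36 to -5.71, so the size of its Winnie difference depends on that library. Leaving out each of the 15 libraries compared in turn, the Winnie ratios of Spink4, Sytl2, Spdef and Creb3l1 kept an adjusted p under 0.05 in 15 of 15 runs and that of Atoh1 in 12. Between the colitic groups those of Bcas1, Atoh1 and Fcgbp did so in 14 of 14 and that of Zg16 in 3.

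Relative to Epcam, Spink4 alone was higher, by 0.95 in Winnie (exact permutation p = 0.000777, adjusted p = 0.00518) and by 1.16 in Winnie-Prolapse (exact p = 0.000155, adjusted p = 0.00233). In all, 6 members were lower in Winnie-Prolapse than in C57BL/6. The differences were -1.16 for Tff3, -1.15 for Fcgbp, -1.86 for Zg16, -0.96 for Bcas1, -0.71 for Atoh1 and -0.79 for Gfi1 (exact permutation, adjusted p between 0.0160 and 0.0476). Leaving out each of the 15 libraries compared in turn, Atoh1 kept an adjusted p under 0.05 in 15 runs and Gfi1 in 14, where Tff3 did so in 8, Bcas1 in 5, Zg16 in 3 and Fcgbp in 3. Between the colitic groups Fcgbp differed by -1.23, Bcas1 by -0.93, Atoh1 by -0.68 and Gfi1 by -0.54 in turn (exact permutation, adjusted p between 0.0160 and 0.0476). Leaving out each of these 14 libraries, they stayed under 0.05 in 4, 14, 13 and 13 runs. By the unadjusted rule, 2 members in Winnie were higher relative to Epcam (background 13.3%) and 0 lower (20.6%). In Winnie-Prolapse against C57BL/6, 1 was higher (25.4%) and 6 lower (27%), and against Winnie 0 were higher (11.5%) and 5 lower (9.26%).

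**Figure D3:**
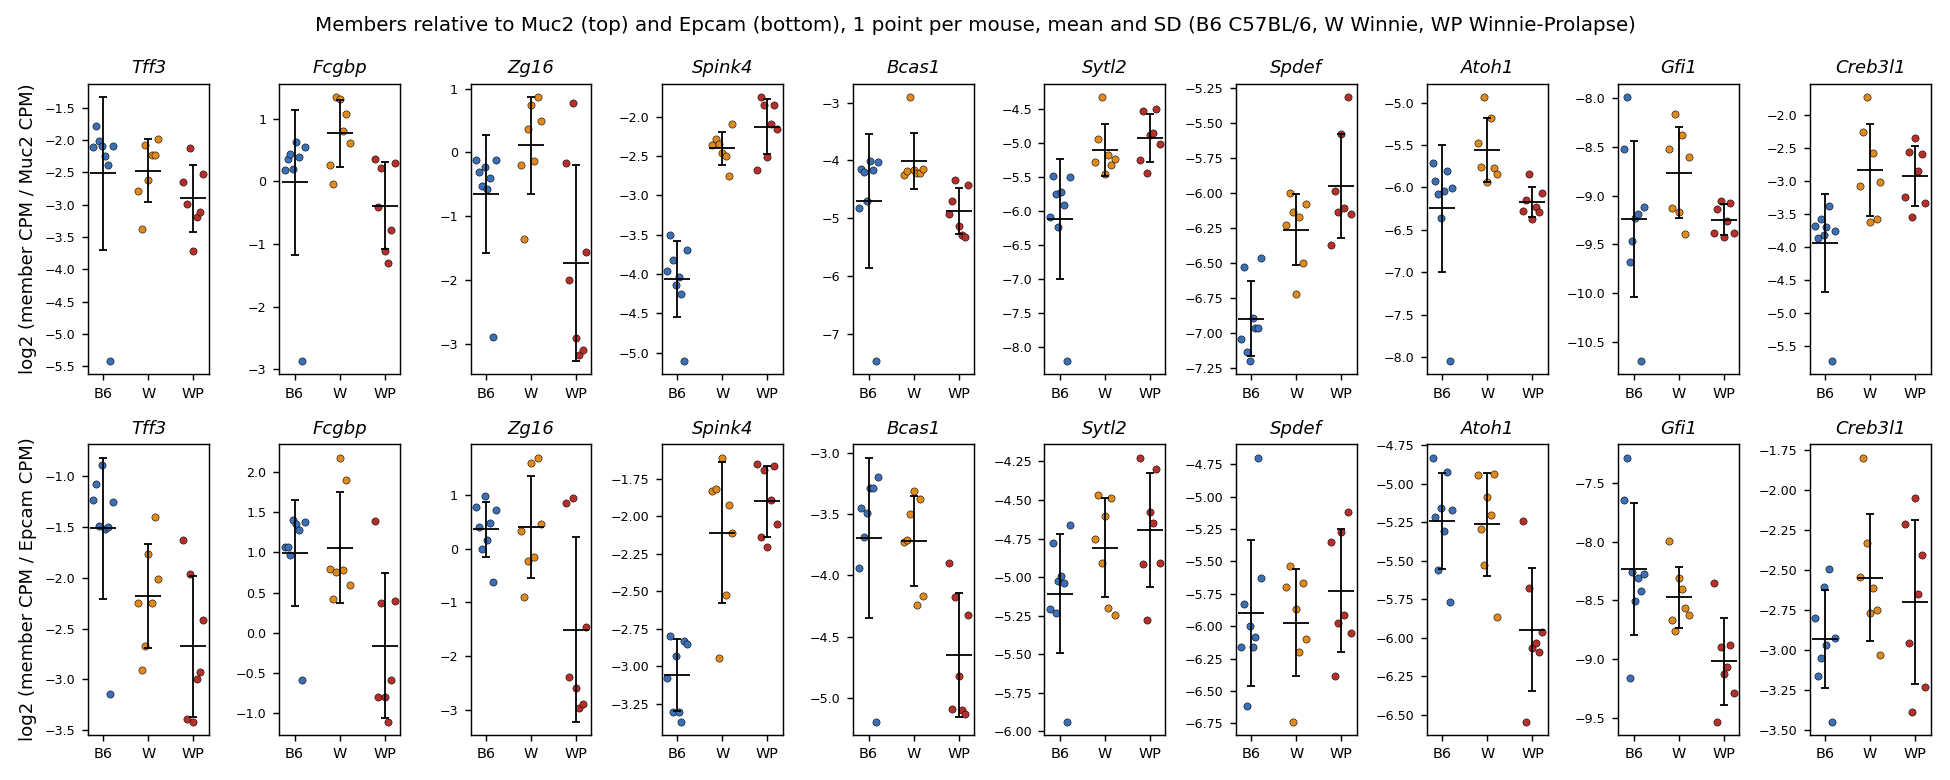
Log2 ratio of each gene to Muc2 (top) and to Epcam (bottom), 1 point per mouse, with group mean and SD. Relative to Muc2, Spink4 in the colitic mice lay above every C57BL/6 mouse, and the lone low C57BL/6 point in most upper panels is replicate 7.

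Within groups, Tff3, Fcgbp, Zg16, Bcas1 and Atoh1 varied most closely together, and 21 of 45 pairs of members passed an adjusted p of 0.05. After group means of log2 CPM were removed, Pearson's r over 22 libraries was 0.90 between Tff3 and Fcgbp (Spearman's rho 0.92, permutation p = 2e-05, adjusted p = 0.000300 over 45 pairs), 0.89 between Fcgbp and Bcas1, 0.87 between Fcgbp and Zg16, and 0.85 between Tff3 and Zg16. Atoh1 followed the same genes, with r of 0.79 to Zg16 (rho 0.79, permutation p = 0.000100, adjusted p = 0.000825), 0.79 to Fcgbp, 0.78 to Tff3 and 0.70 to Bcas1. Without the 2 libraries farthest from the median, r between Tff3 and Fcgbp was 0.84 and between Atoh1 and Zg16 0.73. The count of 21 pairs rests on all 22 libraries, and no share over all gene pairs was set beside it. Without C57BL/6 replicate 7, r of Tff3 with Sytl2 went from 0.52 to 0.26 and that of Tff3 with Spink4 from 0.45 to 0.65. Atoh1 and Gfi1 had r of 0.66 (rho 0.74, permutation p = 0.000670, adjusted p = 0.00301), and 0.94 within the 7 Winnie-Prolapse mice.

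Over all 22 libraries Spdef had r of -0.16 to Tff3, -0.13 to Fcgbp, -0.30 to Bcas1 and 0.06 to Atoh1, and these values rested on C57BL/6 replicate 7, which was at opposite extremes of these genes. Without it they were 0.31, 0.27, 0.20 and 0.41, and that of Spdef to Sytl2 went from 0.02 to 0.67. By group, the r of Spdef to Tff3 was -0.69 within C57BL/6, 0.46 within Winnie and 0.11 within Winnie-Prolapse, and that to Atoh1 -0.50, 0.61 and 0.27. Spdef varied with Spink4 (r 0.59, rho 0.62, permutation p = 0.00386, adjusted p = 0.0124), at 0.92 within Winnie. Within Winnie-Prolapse its r with Spink4 was -0.08, and the sign turned to 0.37 when CPM was scaled by TMM factors. The largest r of Creb3l1 with any member was 0.49, with Sytl2, and 0.33 without C57BL/6 replicate 7. Its r differed in sign between groups, with Zg16 at 0.83 within C57BL/6, -0.61 within Winnie and -0.21 within Winnie-Prolapse, and with Tff3 at 0.74, -0.69 and -0.28. Without replicate 7, the lowest control library for these 3 genes, the C57BL/6 values were 0.57 with Zg16 and 0.10 with Tff3.

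**Figure D4:**
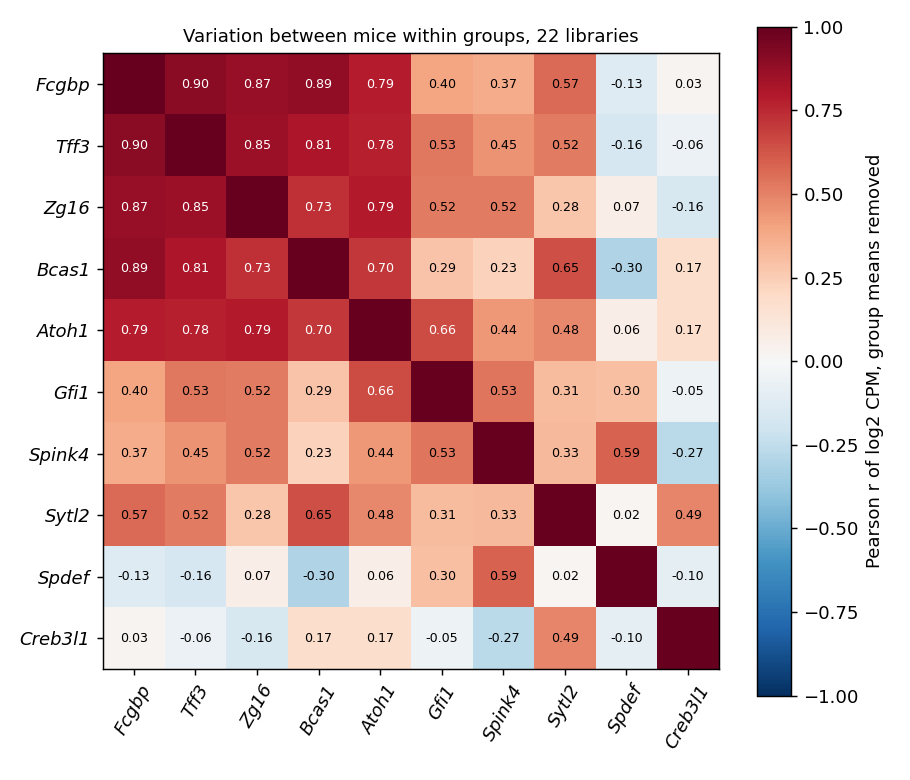
Pearson's r between each pair of the 10 genes over 22 libraries after group means of log2 CPM were removed, from -1 (blue) to 1 (red). Fcgbp, Tff3, Zg16, Bcas1 and Atoh1 form a block with r from 0.70 to 0.90, where Spdef lies between -0.30 and 0.07 with these genes and Creb3l1 between -0.16 and 0.17. Without C57BL/6 replicate 7, which is included in the plot, those of Spdef lie between 0.20 and 0.41 and those of Creb3l1 between -0.39 and 0.03.

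Among 17759 other genes, the 3 most like each member were found by the same group-centred r over 22 libraries. C57BL/6 replicate 7 was among these libraries, and no ranking without it was made. Tff3 was nearest to Spink1 (r 0.97), Ckmt1 (0.93) and Gal3st2 (0.90), and Fcgbp to Fer1l6 (0.95), Capn9 (0.94) and Acp5 (0.90). Zg16 was nearest to Car4 (0.93), a carbonic anhydrase of surface colonocytes, Capn9 (0.91) and Slc25a5 (0.90), and Bcas1 to Gal3st2 (0.91), Dthd1 (0.91) and Gm13597 (0.90). Spink4 was nearest to Pdzd11 (0.85), Agr2 (0.84), the disulfide isomerase needed to make Muc2, and Ppib (0.80). Sytl2 was nearest to Fut8 (0.81), Pla2g5 (0.78) and Galnt5 (0.77). Atoh1 was nearest to Rep15 (0.87), Atp2a3 (0.82) and Hepacam2 (0.79), and Gfi1 to Ovca2 (0.79), Slc5a3 (0.75) and B430010I23Rik (0.75). Spdef was nearest to Cgref1 (0.83), Pycr1 (0.82) and Muc2 itself (0.82), and Creb3l1 to Slc38a10 (0.86), Gm1862 (0.82) and Klf12 (0.82). Muc2 had r of 0.13 with Tff3 and 0.21 with Fcgbp, and both values rested on C57BL/6 replicate 7: without it they were 0.70 and 0.71, and that of Spdef with Muc2 was 0.71. Within C57BL/6 they were -0.77 and -0.86. Within Winnie, Muc2 had r of 0.67 with Tff3 and 0.72 with Fcgbp, and within Winnie-Prolapse 0.78 and 0.78.

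The level of inflammation was taken as the mean log2 CPM of 10 inflammation genes. It ran from -1.13 to -0.06 in C57BL/6, from -0.77 to 4.97 in Winnie and from 4.54 to 7.53 in Winnie-Prolapse. Winnie replicate 5, at -0.77, lay within the C57BL/6 range and is counted here among the 14 colitic mice. Over the 14 colitic mice, with group means removed, Tff3 had r of -0.61 with it (rho -0.67, permutation p = 0.0209, adjusted p = 0.105), Fcgbp -0.63 (rho -0.67, permutation p = 0.0163, adjusted p = 0.105) and Zg16 -0.60 (rho -0.67, permutation p = 0.0153, adjusted p = 0.105). None of the 20 relations tested passed an adjusted p of 0.05 on this scale, 10 of them with inflammation and 10 with the mean level of 6 general epithelial markers. When CPM was also scaled by TMM factors, edgeR's correction for differences in RNA composition, 6 passed by r, all with the epithelial markers (Tff3, Fcgbp, Zg16, Spink4, Bcas1 and Atoh1), with r from 0.66 for Fcgbp to 0.83 for Tff3. On that scale none with inflammation passed by r, and r was -0.52 for Tff3, -0.57 for Fcgbp and -0.56 for Zg16, though by rho Fcgbp (-0.62, permutation, adjusted p = 0.0367) and Zg16 (-0.66, adjusted p = 0.0365) passed. On the unscaled CPM, without the 2 libraries farthest from the median inflammation level, r was -0.72 for Tff3, -0.84 for Fcgbp and -0.79 for Zg16. Within Winnie-Prolapse alone r was -0.78, -0.81 and -0.85 in turn, and -0.79 for Bcas1, over 7 mice (-0.64, -0.72, -0.79 and -0.70 with TMM scaled CPM). Within Winnie alone it was -0.53, -0.54 and -0.48, and -0.03 for Bcas1, also over 7 mice. Spink4 had r of -0.08 over the 14 mice (rho -0.20, permutation p = 0.831, adjusted p = 0.875), with -0.69 within Winnie-Prolapse (-0.41 with TMM scaled CPM) and 0.15 within Winnie, and -0.46 without the 2 farthest libraries.

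**Figure D5:**
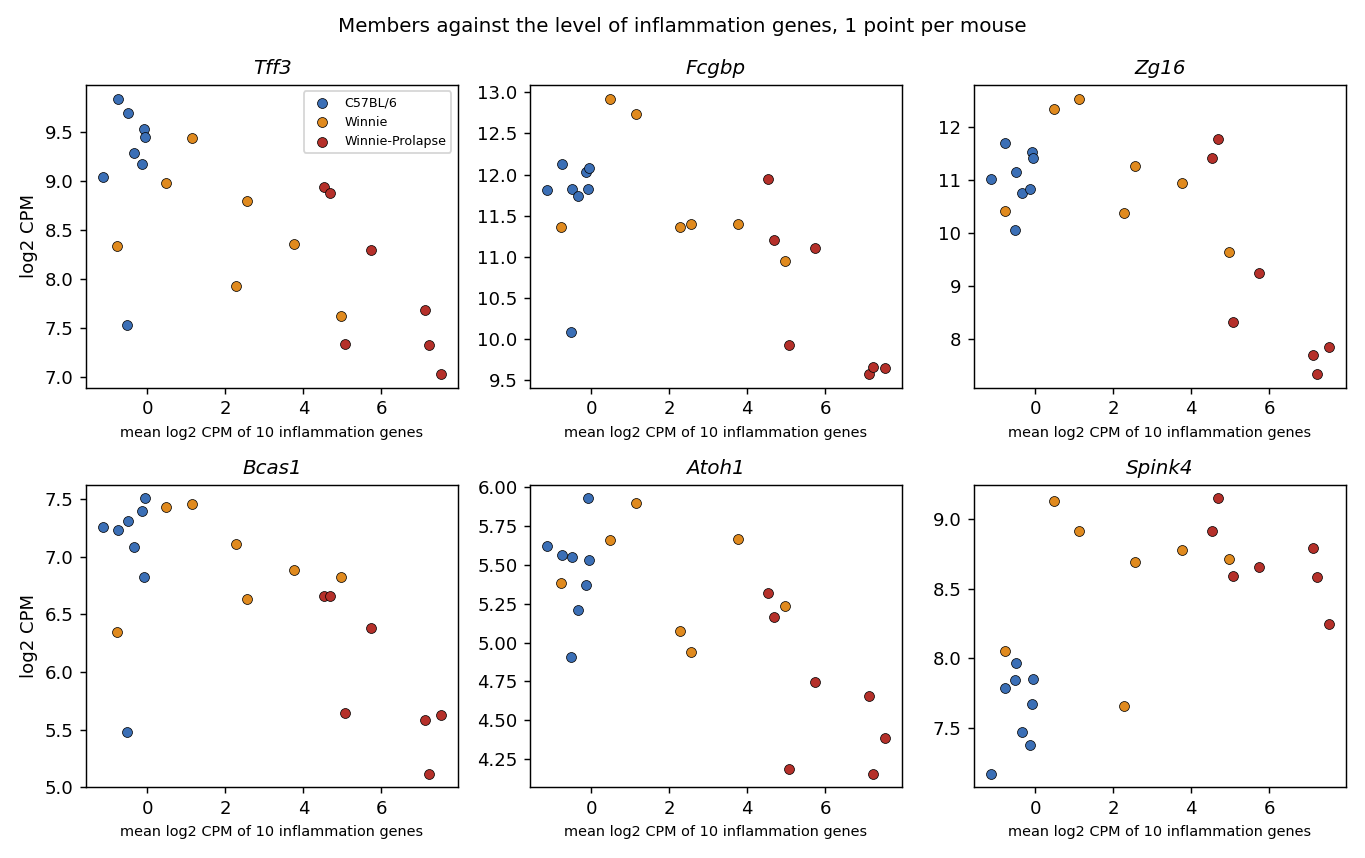
Log2 CPM of 6 members (vertical) against the mean log2 CPM of 10 inflammation genes (horizontal), 1 point per mouse in 3 colours for the groups. The Winnie-Prolapse mice with the least inflammation, near 4.5, held the highest Zg16 and Tff3 of their group.

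Other goblet products and enzymes that build mucin sugars, 20 genes, had 3 higher and 0 lower of 17 tested in Winnie, and 4 higher and 5 lower of 16 in Winnie-Prolapse against C57BL/6, with medians of 0.16 and -0.24. Beside this list and those below, 7.42% of all genes were higher and 8.53% lower in Winnie against C57BL/6. The shares were 16.7% and 17.7% in Winnie-Prolapse against C57BL/6, and 4.27% and 2.72% in Winnie-Prolapse against Winnie. Agr2 rose by 1.55 ± 0.19 (SE, log2) in Winnie (edgeR, adjusted p = 0.000776) and 1.49 ± 0.16 in Winnie-Prolapse (adjusted p = 4.56e-06). Galnt3, which starts mucin O-glycans, rose by 0.94 and 1.78, and C1galt1, which extends them, by 0.69 and 1.18. Klk1, a kallikrein protease, fell by 2.24 ± 0.37 in Winnie-Prolapse against C57BL/6 (adjusted p = 0.000152) and by 2.09 ± 0.55 against Winnie (adjusted p = 0.0320). Between the colitic groups 1 of 16 was higher, Galnt3 at 0.85, and 1 lower.

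Of 18 other regulators of secretory fate tested, 0 were called in Winnie, where the most abundant, Klf4 and Hnf4a, differed by 0.24 (edgeR, adjusted p = 0.162) and 0.02 (adjusted p = 0.902). In Winnie-Prolapse against C57BL/6, 2 were higher and 2 lower. Xbp1, a factor of the unfolded protein response, rose by 0.93 ± 0.12 (adjusted p = 1.23e-05), and the Notch ligand Jag1 by 0.75 ± 0.22 (adjusted p = 0.00870). Hes1, the Notch target that represses Atoh1, fell by 0.67 ± 0.16 (adjusted p = 0.00289), the same direction as Atoh1, and its part in the level of Atoh1 was not tested. Foxa2 fell by 0.72 ± 0.22 (adjusted p = 0.0119), and by 0.61 against Winnie, where Hnf4a also fell by 0.60 (adjusted p = 0.0295).

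The granule exocytosis list, of 15 genes beside Sytl2, had 1 higher and 2 lower in Winnie, and 3 and 3 in Winnie-Prolapse, both against C57BL/6. Unc13d, a priming factor for granule fusion, rose by 0.87 in Winnie, 1.64 in Winnie-Prolapse and 0.78 between them. Myrip, a Rab27 effector, fell by 1.03 and 1.76 in the comparisons with C57BL/6. Sytl1 fell by 1.18 and Mlph rose by 0.78 in Winnie-Prolapse against C57BL/6. Of 5 genes of the Creb3l1 family and its proteases, Creb3l3 rose in Winnie (1.08, edgeR adjusted p = 0.0307) and in Winnie-Prolapse (1.41, adjusted p = 0.0116), and Creb3 rose in Winnie-Prolapse (0.69, adjusted p = 3.27e-05). Between the colitic groups 0 of the 5 were called, with Creb3 at 0.41 (adjusted p = 0.0539) and Mbtps1, the site-1 protease, at -0.20 (adjusted p = 0.106).

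Markers of other cells also moved in Winnie-Prolapse against C57BL/6. None of 6 general epithelial markers was called in any comparison, and their summed level ran from 7043 to 8162 CPM in C57BL/6, 7124 to 9697 in Winnie and 5899 to 9399 in Winnie-Prolapse. In Winnie-Prolapse against C57BL/6, 4 of 6 colonocyte markers fell and 1 rose, 3 of 6 enteroendocrine markers fell, and all 6 smooth muscle markers fell. Over the same comparison 4 of 6 fibroblast markers, all 6 T cell markers, all 5 macrophage markers and 4 of 5 neutrophil markers tested rose. Squamous markers summed to between 2.15 and 3269 CPM in Winnie-Prolapse, where no C57BL/6 mouse exceeded 2.85 CPM. The part of these shifts in the members' levels was not tested. Without the library rich in milk transcripts, Winnie-Prolapse against C57BL/6 gave -0.997 for Tff3 (edgeR, adjusted p = 0.0382), -0.84 for Bcas1 (adjusted p = 0.0292), -0.61 for Atoh1 (adjusted p = 0.0270), -0.83 for Gfi1 (adjusted p = 0.0256) and 1.17 for Spink4 (adjusted p = 7.18e-05).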

How the data were processed

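Gene counts were the deposited unit, without normalization: the authors ran the RNAsik pipeline on stranded, poly(A) selected reads against the mouse genome GRCm38, and the submitters' processing notes name STAR and featureCounts. The annotation release and strand setting were not given in the sources used here. Totals ran from 24.8 M to 36.3 M counts per library, and the lowest count of a member in any library was that of Gfi1, 64. The members, lists and tests were chosen with earlier results of these data known. Groups came from the labels, which hold 1 more Winnie library than the study's text gives for RNA sequencing. Which library that is was not given in the sources used here, and all 7 were used. Replicate numbers only name mice.

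Counts were tested with edgeR 4.0.16 (TMM factors, filterByExpr, quasi-likelihood F test, Benjamini-Hochberg adjustment over all genes) in R 4.3.3, each comparison on its own 2 groups. Calls required at least 1.5-fold and an adjusted p under 0.001, as in the study, or under 0.05. CPM used library totals, and log2 CPM a prior count of 2. Ratios were tested by exact permutation, and correlations by 100000 permutations within groups. Levels per length used the union of annotated exons.

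Genes named were all members, Muc2 and Epcam, up to 4 called genes of each pathway list by smallest adjusted p (otherwise the 2 most abundant) and the 3 genes most like each member. One gene that this rule names is not reported here. Alternatives were DESeq2 1.42.0, limma-voom 3.58.1, other scalings and filters, sex as a covariate, each sex alone, 1 joint fit, leaving out milk protein genes and leaving out each library. The bias-adjusted edgeR fit, the fit without 2 libraries that stood apart and the correlations without C57BL/6 replicate 7 were chosen after seeing the data.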

Additional observations from a re-analysis of the deposited data

Results flagged for a closer look

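In 30 tests of the highest or lowest mouse of a group against Dixon's critical value, 2 results stood out, where chance gives about 1 in 20. Fcgbp in C57BL/6 replicate 7 was 1081.76 CPM, far below the other 7 control mice. Spdef in the same library was 63.03 CPM, far above them.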

How the results depend on the processing

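No paired analysis was possible because replicate numbers were given in accession order and pair no mice. Spink4 in Winnie-Prolapse against C57BL/6 passed an adjusted p of 0.001 in all 15 fits that left out 1 library. For Winnie against C57BL/6 at that limit, DESeq2 called 1 member in place of 0 (5.84% of all genes in place of 0.0925%), and leaving out 1 library gave 0 to 1 (Spink4, without Winnie replicate 5). Without that library 3.89% of all genes were called. At 0.05 the 1 call became 3 in males (22.5% of all genes in place of 15.9%) and 0 in females (0.00579%), where Spink4 was at 1.29 (adjusted p = 0.171), and 1 to 2 leaving out 1 library. The sex interaction had 2 members by DESeq2 in place of 0 (5.06% of genes in place of 0.247%). For Winnie-Prolapse against C57BL/6 at 0.001 the 1 call became 0 in males and 0 in females (1.76% and 1.45% of genes in place of 18.3%). At 0.05 the 5 calls became 1 in males (24.2% of genes in place of 34.4%), 4 in females (27.1%), 7 by limma-voom (33.7%), 6 by DESeq2 (31.9%), 6 without TMM factors (34.7%), 6 with sex as a covariate (34.4%) and 4 to 7 leaving out 1 library. For Winnie-Prolapse against Winnie at 0.05 the 1 call (6.99% of genes) became 2 without TMM factors (5.92%), 4 by DESeq2 (11.9%), 0 without a filter (4.74%), 0 with sex as a covariate (4.75%), 2 in 1 joint fit (10.1%), 0 in males (0%) and 3 in females (14.3%), and 0 to 4 leaving out 1 library. Relations to list levels passing 0.05 went from 0 to 6 with TMM scaled CPM (by r), all 6 with epithelial markers, and ratio tests passing went from 25 to between 16 and 29 leaving out 1 library.

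Directions turned in these cases, whose cause was not tested. In Winnie against C57BL/6, males gave -0.61 for Fcgbp, -0.87 for Zg16, 0.085 for Spdef and -0.20 for Atoh1, and females gave 0.11 for Tff3, 0.075 for Bcas1 and 0.11 for Gfi1. Bcas1 was 0.028 by limma-voom and 0.0030 without a filter, and Atoh1 was -0.043 without TMM factors. Females gave -0.094 for Spdef in Winnie-Prolapse against C57BL/6 and -0.059 for Spink4 against Winnie, and males gave 0.35 for Tff3 and 0.42 for Zg16 against Winnie. With summed epithelial markers in place of Epcam, the Winnie ratios were -0.14 for Fcgbp and -0.17 for Zg16. Leaving out 1 library, Winnie log2 fold changes ran from -0.067 to 0.13 for Atoh1, -0.14 to 0.082 for Bcas1, -0.018 to 0.39 for Fcgbp and -0.16 to 0.19 for Spdef. Between the colitic groups they ran from -0.029 to 0.21 for Spink4 and -0.052 to 0.14 for Sytl2. Epcam ratios in Winnie ran from -0.099 to 0.077 for Atoh1, -0.24 to 0.060 for Bcas1, -0.15 to 0.18 for Fcgbp, -0.18 to 0.10 for Spdef and -0.17 to 0.26 for Zg16. Muc2 ratios ran from -0.37 to 0.19 for Tff3 in Winnie, -0.19 to 0.15 for Atoh1 and -0.22 to 0.17 for Gfi1 in Winnie-Prolapse against C57BL/6, and -0.22 to 0.10 for Creb3l1 against Winnie. The spread between mice limits Zg16 most, whose 95% interval in Winnie-Prolapse against C57BL/6 ran from -2.23 to 0.47.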
